A study of Mus musculus with 20 samples.

Results

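The replication-dependent histone genes of the mouse uterus were followed over 20 one-colour Agilent arrays. The labels describe homogenising each uterus, while the study's methods describe RNA from pooled tissue, so the number of mice behind an array is not settled. A gene was a member when its name on the array began with Hist1h, Hist2h, Hist3h or Hist4h, and where several probes carried the same name the probe with the highest mean log2 signal over the 20 arrays stood for the gene. This gave 34 genes from 44 probes, among 27962 gene names on the array. They comprised 6 linker histone H1 genes, 11 H2A, 8 H2B, 3 H3 and 6 H4 genes, of which 24 belong to the large Hist1 cluster on chromosome 13, 6 to Hist2 on chromosome 3, 3 to Hist3 on chromosome 11 and 1 to Hist4 on chromosome 6. The name rule alone chose them, without use of any measured change.

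All mice were ovariectomized C57bl6/J adults of at least 10 weeks, rested for 10 to 14 days after surgery, and each received 1 subcutaneous injection in 100 µl of sesame oil. The 3 vehicle arrays came from mice labelled 24 h and served as the reference for both times. The other groups were estradiol (E2, 250 ng; 3 arrays at 2 h and 2 at 24 h), bisphenol A (BPA, 750 µg; 3 arrays at each time) and HPTE, the hydroxylated metabolite of the pesticide methoxychlor (750 µg; 3 arrays at each time). BPA and HPTE were thus given at a matched dose, while the E2 dose was different. Ovariectomy removes the main source of circulating estrogen, so that the uterus of these mice is a regressed organ, and whole-uterus RNA mixes epithelium, stroma, muscle and blood vessels: fewer cells of a type and less RNA per cell cannot be told apart here.

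Histone proteins package DNA: H2A, H2B, H3 and H4 form the core of the nucleosome and H1 binds the linker DNA between nucleosomes. Most of their genes lie in clusters and are transcribed mainly while DNA is being copied, and their short, intronless messages end in a stem-loop bound by the protein Slbp instead of a poly(A) tail. Some cluster genes are known to make in addition, or in resting cells mainly, messages with a poly(A) tail that run past the stem-loop; H1c, H2be and H2aa genes are among the textbook examples. In the ovariectomized mouse uterus estrogen is known to bring the epithelium into a wave of DNA synthesis within a day.

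The probes were 60 bases long, and those that bear on the reading of the values are given first. Because histone genes of a type are near copies, 10 of the 34 members were represented by probes that shared an unbroken run of at least 20 bases with the probe of another member, so their values are not independent and each may hold signal of its neighbours. Such pairs are shown, from the array files, with the shared run in capitals:
Hist1h2ai: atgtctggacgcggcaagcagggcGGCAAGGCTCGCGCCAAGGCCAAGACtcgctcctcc
Hist1h2ak: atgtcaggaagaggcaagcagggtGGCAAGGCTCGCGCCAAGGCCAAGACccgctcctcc
Hist1h2aa: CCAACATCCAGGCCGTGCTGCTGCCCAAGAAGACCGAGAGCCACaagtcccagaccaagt
Hist1h2af: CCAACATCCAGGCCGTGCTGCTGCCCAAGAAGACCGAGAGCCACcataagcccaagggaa
Hist1h2bk: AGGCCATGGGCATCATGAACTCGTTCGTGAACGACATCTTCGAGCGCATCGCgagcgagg
Hist1h2bm: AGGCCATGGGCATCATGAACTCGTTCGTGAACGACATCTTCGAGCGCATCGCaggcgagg
The H2B pair matched at 58 of 60 bases, the first H2A pair at 55 of 60 and the second at 47 of 60. Hist3h2bb, which RefSeq lists as a pseudogene (H2bu1-ps), joined the H2B pair with a run of 26 bases, and Hist1h4d, Hist1h4f and Hist2h4 formed a set of 3 for H4. The probe called Hist2h2ac started, by the positions given in the files, only 249 bases from the probe of Hist2h2aa1 on chromosome 3, so its gene is uncertain.

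The probes of 3 genes carried letters of the stem-loop itself. These are given in part, with the stem-loop letters in capitals:
Hist1h3a: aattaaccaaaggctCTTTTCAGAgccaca
Hist1h2ab: gaaagttaaccaaaacaaaggctCTTTTCA
Hist1h2ae: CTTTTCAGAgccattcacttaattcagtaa
In the Hist1h3a probe 6 bases followed the loop core, in the Hist1h2ab probe none did, and in the Hist1h2ae probe 51 of the 60 bases lay after it, the side that processing of a histone message cuts away. By base composition 20 member probes held at least 50% G and C and 14 held less. The stretches below come from the second kind, for the genes whose signal went down in most comparisons:
Hist1h1c: tacacttgctttgccttattttgatcagca
Hist2h2be: tcctacctgaagacaacggccttggttttc
Hist3h2ba: aggggggtgttgtactggaccttgggatcc
In mm7, the build of the array files, the Hist1h1c probe lay at chr13:23105951-23106010, that of Hist2h2be at chr3:96097408-96097467, that of Hist3h2ba at chr11:59030991-59031050, that of Hist1h2ab at chr13:23117325-23117384 and that of Hist1h3a at chr13:23127689-23127748.

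Signal is given as scaled intensity: the scanner's processed signal divided by the array's 75th percentile, times the median of these percentiles over the arrays (1679), and differences are log2 values from limma, called at a Benjamini-Hochberg adjusted p under 0.05 over the 32460 probes tested. Of the 34 members 33 passed the filter on dim probes. The exception was Hist1h2ac, an H2A gene, which was not well above background on any array, with scaled intensities between 2.41 and 7.88. Hist1h3a was well above background on 13 arrays, Hist1h1t on 11 and Hist1h2be on 15, and the remaining 30 tested members on all 20. How the RNA was primed for labelling is not given in the sources used here, so whether messages without a poly(A) tail were read as well as those with one cannot be told.

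**Figure D1:**
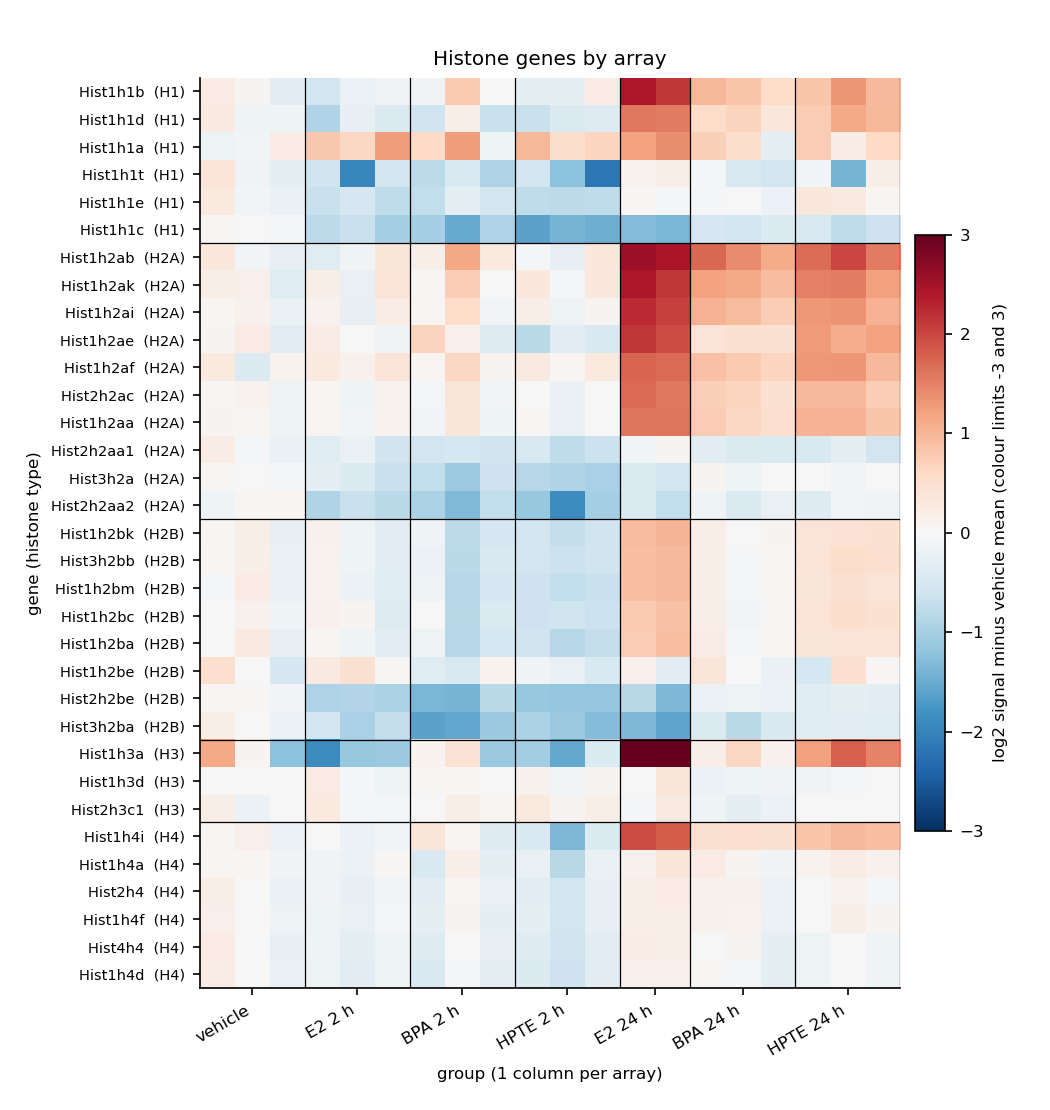
Log2 signal of the 33 tested histone genes (rows, by histone type and then by change under E2 at 24 h) on the 20 arrays (columns, by group), minus the mean of the 3 vehicle arrays. Red is above and blue below vehicle: both E2 24 h columns are red for 7 H2A genes, 5 H2B genes and 3 H1 genes, and the genes at the bottom of the H1, H2A and H2B blocks are blue at 2 h under all 3 compounds.

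Estradiol at 24 h raised the largest number of histone genes. Of the 33 tested members 17 were higher and 5 lower than in vehicle, against 26.3% of all tested probes higher and 37.6% lower, and the members' median change was 0.83 on the log2 scale where the median over all probes was −0.15. By type, 7 of 10 tested H2A genes, 5 of 8 H2B genes and 3 of 6 H1 genes rose, but only 1 of 3 H3 and 1 of 6 H4 genes. The number of risers of each type was the same without scaling, with spike-in scaling and under both quantile settings, while the number that fell ranged from 3 (spike-in scaling) to 5.

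The canonical H2A genes of the Hist1 cluster rose furthest as a group. Hist1h2ab, whose gene lies at chr13:23751088-23751592 (GRCm38.p6), read 221, 167 and 150 on the vehicle arrays and 1047 and 961 on both E2 24 h arrays. The E2 arrays stood apart from all vehicle arrays, with a change of 2.50 (SE 0.294, limma adjusted p = 2.92e-06), or 5.67-fold. Hist1h2ak went from 2319, 2234 and 1555 to 10825 and 8812 (2.28, SE 0.240, limma adjusted p = 9.33e-07). Its near copy Hist1h2ai went from 1225, 1284 and 1018 to 5516 and 4829 (2.14, SE 0.189, limma adjusted p = 1.65e-07). The 4 remaining risers of this type, Hist1h2ae, Hist1h2af, Hist1h2aa and Hist2h2ac, changed by 2.05, 1.73, 1.61 and 1.64. The replicates of each of these probes were close, and none of the E2 24 h values fell within the vehicle range.

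H1 genes, whose products compact the linker DNA, split in direction. Hist1h1b read 360, 319 and 241 in vehicle against 1622 and 1328 after E2 for 24 h (log2 change 2.28) and Hist1h1d rose by 1.58. Hist1h1a rose by 1.30 (SE 0.346, limma adjusted p = 3.97e-03) from a weak signal of 50.8, 53.0 and 67.1. Hist1h1e stayed at 0.01 and the male germ line gene Hist1h1t at 0.16, neither called. Hist1h1c fell by 1.33 (SE 0.146, limma adjusted p = 1.43e-06), from 12701, 12545 and 11942 to 5022 and 4819. The vehicle and E2 ranges were far apart in this gene as well, in the opposite direction to Hist1h1b.

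H2B genes showed the same split with a smaller rise. Hist1h2bc read 6185, 6769 and 5616 in vehicle and 10649 and 11426 after E2 (0.84, SE 0.188, limma adjusted p = 1.14e-03), and Hist1h2bk, Hist1h2bm, Hist3h2bb and Hist1h2ba rose by 0.97, 0.94, 0.94 and 0.83. The first 3 of these 4 share probe letters, as shown above. Hist2h2be fell from 4153, 4068 and 3792 to 2233 and 1584 (−1.09, SE 0.152, limma adjusted p = 1.61e-05) and Hist3h2ba from 6668, 5847 and 5195 to 2294 and 1948 (−1.47, SE 0.169, limma adjusted p = 2.33e-06). Together with Hist1h1c and the H2A genes Hist3h2a (−0.47) and Hist2h2aa2 (−0.58) they made up the 5 members that fell under E2 at 24 h. For Hist3h2a this holds for the brightest probe only. Its 2 other probes, at 50% and 53.3% G and C, were called higher (1.46 and 0.69). The call of Hist2h2aa2 was lost without scaling, with spike-in scaling, with the mean of its probes, with slide as a fixed block, without vehicle replicate 2 or 3 or E2 24 h replicate 3, and under both quantile settings (−0.09 and −0.02). All 5 were read by probes under 50% G and C without stem-loop letters. Probes of this same kind were called higher for Hist1h2bc (0.84) and Hist1h4i (below), and others of the kind were not called. Among the 20 probes at or above 50% G and C, 12 rose and 0 fell in limma, and the same 12 were those with an unadjusted p under 0.05.

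H3 and H4, the most conserved histones, moved through a single probe each. Hist1h3a, at chr13:23761885-23762386 (GRCm38.p6), read 45.6, 21.9 and 8.79 in vehicle and 191 and 212 after E2 for 24 h, a change of 3.29 (SE 0.558, limma adjusted p = 1.05e-04); 2 of the 3 vehicle arrays were well above background for it. This was the largest log2 change among the members in this comparison, and the vehicle arrays were widely spread. Hist1h4i rose from 930, 1002 and 799 to 3539 and 3170 (1.89, SE 0.233, limma adjusted p = 4.84e-06), and its probe, at 45.0% G and C, was the only one under 50% among the brightest H4 probes. It was matched to the gene by synonym, and the position given for it in the array files covers only a small part of the probe. Its gene is therefore less certain than that of probes matched by accession. The 5 other H4 genes changed by 0.15 to 0.25 without a call. The H3 probes Hist1h3d and Hist2h3c1 changed by 0.20 and 0.13, with no call. Hist2h3c1 was bright (71469, 54953 and 61708 in vehicle, 61338 and 75450 after E2), and under quantile normalization its change became −0.32, with a call as a fall, so no direction can be given for it.

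**Figure D2:**
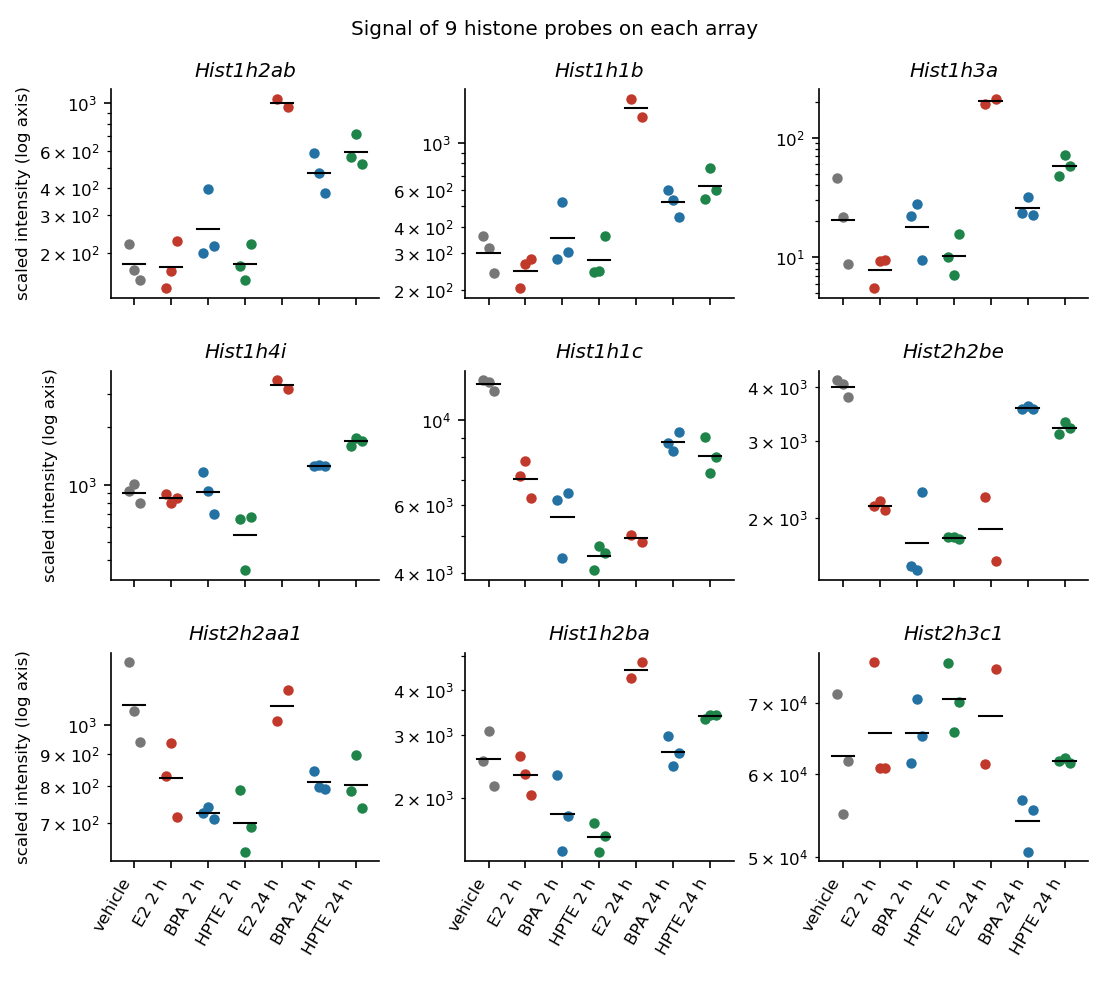
Scaled intensity (log axis) of 9 histone probes on every array, 1 point per array, with the group mean of the log values as a bar; grey is vehicle, red E2, blue BPA and green HPTE. Hist1h2ab, Hist1h1b, Hist1h3a and Hist1h4i are highest on both E2 24 h arrays, Hist1h1c and Hist2h2be are highest on the vehicle arrays, and the groups overlap for Hist2h3c1.

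HPTE at 24 h raised 14 of the 33 members and lowered 2, against 14.9% of all probes higher and 19.1% lower. BPA at 24 h raised 7 and lowered 3, against 5.09% higher and 8.03% lower. The members' medians were 0.40 for HPTE and 0.06 for BPA, where the medians over all probes were −0.06 and −0.03. Under E2, HPTE and BPA alike 7 members rose: the H2A genes Hist1h2aa, Hist1h2ab, Hist1h2af, Hist1h2ai, Hist1h2ak and Hist2h2ac, and the H1 gene Hist1h1b. Another 7 rose under E2 and HPTE without a call under BPA (Hist1h1d, Hist1h2ae, Hist1h2bc, Hist1h2bk, Hist1h3a, Hist1h4i and Hist3h2bb) and 3 were called higher under E2 alone (Hist1h1a, Hist1h2ba and Hist1h2bm). A missing call does not show that a gene was unchanged, and the Hist1h2bm probe nearly matches that of Hist1h2bk. These 3 comparisons share the vehicle arrays. The BPA count was fragile: scaling on spike-in probes left 0 calls and a median of −0.07, 6 higher and 0 lower were left when the first or second vehicle array, or the second BPA 24 h array, was dropped, slide as a fixed block left 5 higher and 1 lower, and no scaling 3 and 3. For HPTE spike-in scaling left 3 higher and 1 lower, with a median of 0.10.

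H2A genes made up 6 of the 7 members that rose under BPA and 7 of the 14 under HPTE. Hist1h2ab read 582, 474 and 380 after BPA (1.41, SE 0.263, limma adjusted p = 2.62e-03) and 562, 712 and 519 after HPTE (1.74, SE 0.263, limma adjusted p = 1.79e-04). Hist1h2ak read 4631, 4373 and 3838 after BPA (1.09) and 5712, 5838 and 4677 after HPTE (1.42), and Hist1h2ai changed by 0.90 and 1.23. All of these arrays lay above all vehicle arrays. In all, 6 of 10 tested H2A genes rose under BPA and 7 of 10 under HPTE, while 1 fell under each, Hist2h2aa1, by 0.41 and 0.42. The BPA call of Hist2h2aa1 was lost in 5 of the 20 fits that left out 1 array and the HPTE call in 2, and both were lost with slide as a fixed block, with only the compared groups and with spike-in scaling. With spike-in scaling the H2A counts were 0 higher for BPA and 3 for HPTE, at medians of 0.49 and 0.78 against 0.62 and 1.08 in the reported scaling.

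The other histone types gave fewer calls. Of the 8 H2B genes 3 rose under HPTE (Hist1h2bc by 0.47, Hist3h2bb by 0.47 and Hist1h2bk by 0.43) and 0 under BPA, where limma gave an unadjusted p under 0.05 for 1 H2B gene, Hist3h2ba, the gene that fell (−0.56). Under HPTE limma gave an unadjusted p under 0.05, in either direction, for 7 of the 8, and their median change was 0.40 over all 8. The BPA call of Hist3h2ba was lost with spike-in scaling, with slide as a fixed block and with only the compared groups. It was also lost without vehicle replicate 1 or 2 or BPA 24 h replicate 2. The HPTE call of Hist1h2bc was lost in 9 of the 20 fits that left out 1 array, and without scaling, under both quantile settings, without the filter on dim probes, with slide or scan day as a block and with spike-in scaling (0.17). Hist1h3a read 48.1, 71.4 and 57.9 under HPTE (1.5, SE 0.499, limma adjusted p = 3.08e-02) and 23.6, 32 and 22.4 under BPA (0.31, not called). The HPTE call was lost without vehicle replicate 2 or 3 or HPTE 24 h replicate 2 or 3. Hist1h4i read 1601, 1769 and 1700 under HPTE (0.90) and 1246, 1269 and 1252 under BPA (0.47, not called). The 3 BPA values of Hist1h4i nevertheless all exceeded the highest vehicle value of 1002. Hist1h1c stayed below vehicle under both, at 8702, 8328 and 9316 for BPA (−0.50, SE 0.131, limma adjusted p = 2.09e-02) and 9024, 7299 and 8030 for HPTE (−0.62, SE 0.131, limma adjusted p = 2.34e-03). The BPA call for Hist1h1c was lost without either of vehicle replicates 1 and 2 or of BPA 24 h replicates 1 and 2.

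**Figure D3:**
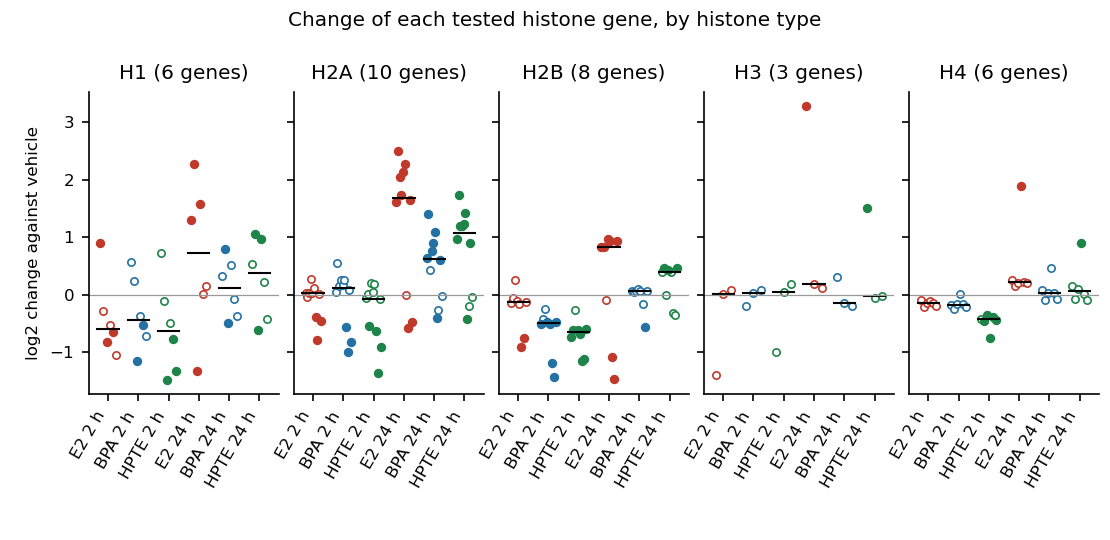
Log2 change against vehicle of every tested histone gene (1 point per gene), by histone type, for E2 (red), BPA (blue) and HPTE (green) at 2 h and 24 h; filled points passed limma's adjusted p of 0.05, open points did not, and the bar is the median of the type. H2A medians at 24 h are 1.68, 0.62 and 1.08, and H2B medians at 2 h are −0.13, −0.49 and −0.65.

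At 2 h the called members were nearly all lower than vehicle, and under E2 and BPA most members were not called. The 3 comparisons share the vehicle arrays, which are labelled 24 h. Compound and time after injection therefore cannot be told apart in them. Of the 33 members 7 were lower and 1 higher under E2, 11 and 0 under BPA, and 19 and 0 under HPTE. In either direction limma gave unadjusted p under 0.05 for 11, 12 and 22 members. Over all probes 17% were lower and 11.1% higher under E2, 30.2% and 19.3% under BPA, and 28.2% and 19.9% under HPTE, so the E2 and BPA shares of lowered members were near those of all probes. Under all 3 compounds 7 genes fell: Hist1h1c, Hist1h1e, Hist2h2aa1, Hist2h2aa2, Hist2h2be, Hist3h2a and Hist3h2ba. Of these, the other Hist3h2a probes were not called under E2 or BPA, and the E2 call was lost for Hist2h2aa1 in 4 of the 20 fits that left out 1 array and for Hist2h2aa2 under both quantile settings. Under BPA and HPTE 4 H2B genes fell (Hist1h2ba, Hist1h2bk, Hist1h2bm and Hist3h2bb), although their BPA arrays overlapped vehicle, and 8 members under HPTE alone, among them 5 of the 6 H4 genes. Spike-in scaling left 2, 5 and 4 lower members for E2, BPA and HPTE; for BPA a fit on the compared groups only left 6 and slide as a fixed block or leaving out vehicle replicate 2 left 7; for E2 leaving out both arrays with pancreatic transcripts (below) left 3.

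Hist1h1c gave the clearest early fall, in that its 3 groups at 2 h were all well under the vehicle range. After 2 h it read 7164, 7805 and 6252 under E2, 6203, 4368 and 6477 under BPA and 4066, 4691 and 4511 under HPTE, changes of −0.81, −1.15 and −1.49 (limma adjusted p = 2.70e-04, 6.43e-06 and 5.06e-07). Hist2h2be read 2122, 2190 and 2086 under E2, 1547, 1512 and 2293 under BPA and 1807, 1801 and 1785 under HPTE, changes of −0.91, −1.19 and −1.15. Hist3h2ba changed by −0.75, −1.43 and −1.12 and Hist2h2aa2 by −0.79, −1.0 and −1.36. None of these 2 h values overlapped the vehicle arrays. Hist2h2aa1, which encodes the same H2A type as Hist2h2aa2 but is read by a probe at 65.0% G and C, fell less, by 0.39, 0.57 and 0.62.

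Of the 6 H4 genes 5 were called lower than vehicle after HPTE, and limma called 0 after E2 or BPA (0 with an unadjusted p under 0.05 in either), while the direct comparison of HPTE with BPA called 0 in limma (1 with an unadjusted p under 0.05; median difference −0.23). Hist1h4i read 658, 355 and 677 under HPTE at 2 h (−0.74, SE 0.208, limma adjusted p = 7.94e-03), below all vehicle arrays, and Hist1h4f read 12938, 10904 and 13445 against 17709, 15750 and 14388 in vehicle (−0.36, SE 0.119, limma adjusted p = 2.09e-02). Hist1h4d, Hist2h4 and Hist4h4 fell by 0.46, 0.39 and 0.43. Over all probes 28.2% were lower after HPTE at 2 h. The probes of Hist1h4d, Hist1h4f and Hist2h4 share letters, so their calls are not independent. The 5 calls of this type under HPTE became 1 without scaling and 0 with spike-in scaling. The only member raised at 2 h was Hist1h1a under E2 (98.7, 86.8 and 135; 0.89, SE 0.310, limma adjusted p = 4.24e-02), and this call was lost in 9 of the 20 fits that left out 1 array, those without vehicle replicate 1 or 2 or E2 2 h replicate 1 or 3 among them.

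The comparison of 24 h with 2 h of the same compound does not use the vehicle arrays. Between these times 22 members rose and 2 fell under E2, 18 rose and 0 fell under BPA and 27 rose and 0 fell under HPTE. The shares over all probes were 25.9% higher and 30.1% lower for E2, 28.2% and 20.2% for BPA, and 29.5% and 24.6% for HPTE. The members' medians were 0.90, 0.51 and 0.99, against −0.09, 0.06 and 0.05 over all probes. The 2 members that fell further under E2 were Hist1h1c (−0.52, SE 0.146, limma adjusted p = 6.90e-03) and Hist3h2ba (−0.72, SE 0.169, limma adjusted p = 1.91e-03). Neither fall was called when the arrays were left unscaled (−0.26 and −0.47) or were scaled on the spike-ins (−0.41 and −0.61). Under BPA and HPTE both genes went the other way, Hist1h1c by 0.65 and 0.87 and Hist3h2ba by 0.86 and 0.77. Hist2h2be rose by 1.03 and 0.84 under BPA and HPTE and changed by −0.18 under E2, not called. For Hist1h3a no E2 2 h array was well above background, so that the level at 24 h was at least 13.6-fold higher (limma adjusted p = 4.38e-06). Spike-in scaling left 1 call for BPA and 5 higher and 1 lower for HPTE, with medians of 0.29 and 0.44.

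BPA and HPTE are both bisphenols; the carbon that joins their phenol rings carries methyl groups in BPA and a trichloromethyl group in HPTE. At the matched dose no member differed between them at 2 h or at 24 h at limma adjusted p under 0.05, with 3 and 11 members under 0.05 unadjusted. Over all probes 0.24% were higher and 0.197% lower under HPTE at 2 h, and 2.99% higher and 1.09% lower at 24 h. The median difference, HPTE minus BPA, was −0.17 at 2 h and 0.26 at 24 h. The intervals leave room for differences in several genes: at 24 h Hist1h2ae differed by 0.75 (95% interval 0.31 to 1.20, limma adjusted p = 0.0565), Hist1h3a by 1.19 (0.12 to 2.25, adjusted p = 0.188) and Hist1h2ab by 0.33 (−0.23 to 0.89, adjusted p = 0.524). At 2 h Hist1h4i differed by −0.75 (−1.20 to −0.31, limma adjusted p = 0.113). For Hist1h1c the interval at 24 h was −0.40 to 0.16 and for Hist2h2aa1 −0.27 to 0.24. A p that misses the threshold does not show that both compounds act alike. Other settings gave at most 2 calls at either time.

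**Figure D4:**
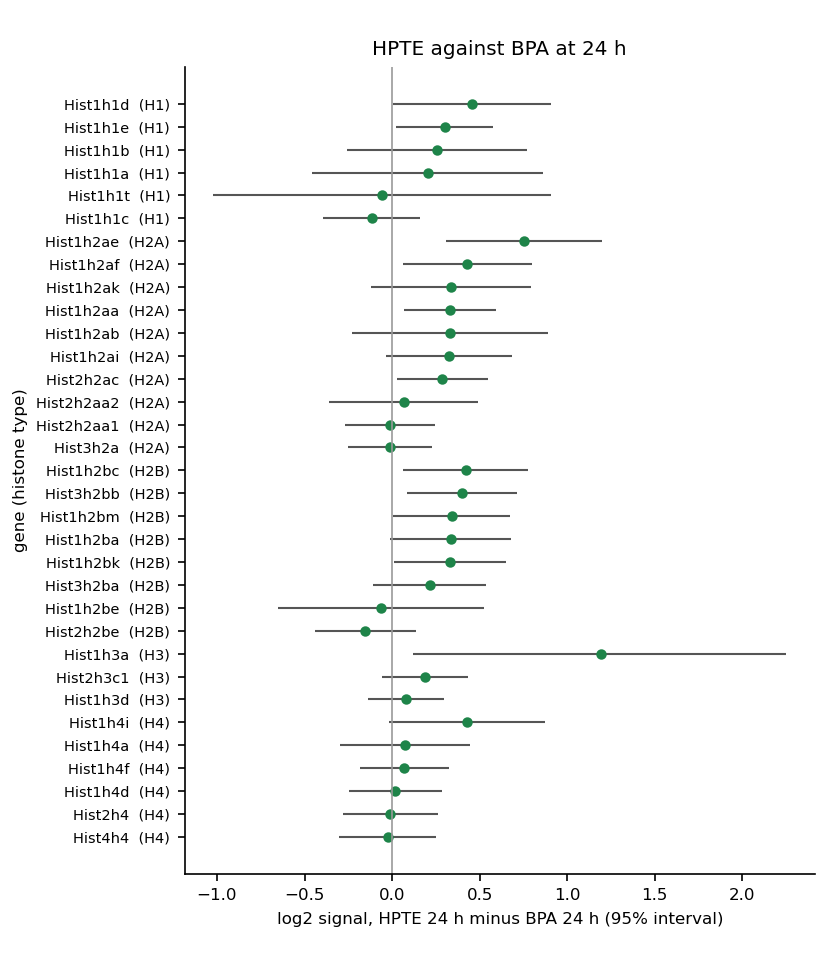
Difference in log2 signal between HPTE and BPA at 24 h for each tested histone gene, with its 95% interval from limma, ordered within histone type. Most H2A and H2B points lie right of 0, none passed limma's adjusted p of 0.05, and the widest interval, that of Hist1h3a, runs from 0.12 to 2.25.

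Against E2 at 24 h, given at another dose, BPA was lower for 20 members and higher for 4, and HPTE lower for 15 and higher for 4. Over all probes 24.6% were lower and 33.2% higher for BPA, and 21.6% and 27.3% for HPTE. The 4 that were higher under each were Hist1h1c, Hist2h2be, Hist3h2a and Hist3h2ba, by 0.83, 0.93, 0.45 and 0.91 for BPA and by 0.72, 0.78, 0.44 and 1.13 for HPTE. Spike-in scaling left 0 of these 4 calls under either compound, and the 2 other Hist3h2a probes were lower for BPA than for E2 (−1.06 and −0.50, both called) and for HPTE (−0.74, called, and −0.20, not called). Hist1h3a showed the widest gap, −2.97 for BPA and −1.79 for HPTE. The HPTE calls fell to 4 higher and 8 lower without E2 24 h replicate 2, to 3 and 7 without replicate 3, and to 0 and 9 with spike-in scaling. As E2 24 h had only 2 arrays, its own spread is poorly known.

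Where a gene had more than 1 probe, the probes did not always tell the same story. A second Hist1h2bk probe was close to the first in each comparison with vehicle (for example 1.05 and 0.97 under E2 at 24 h). A second Hist1h2af probe rose further than the first under E2 at 24 h (2.29 and 1.73) and differed from it at 2 h (−0.01 and 0.27, neither called). This second probe opens with a long run of letters that also closes the Hist1h2ak probe, so it may hold signal of Hist1h2ak. Hist3h2a was read by 3 probes: the brightest, at 35% G and C, changed by −0.47 under E2 at 24 h, another by 1.46 and the last by 0.69, all called. The last shared a run of 17 bases with the reverse complement of the Hist1h2ai probe. A second Hist1h1d probe changed by −0.29, −1.30 and −1.90 at 2 h under E2, BPA and HPTE and by 1.88, 0.34 and 1.33 at 24 h, where the brightest gave −0.53, −0.36 and −0.49 and then 1.58, 0.52 and 0.97. A second Hist1h2bc probe, which the files place on another part of chromosome 13, changed by −1.30, −2.16 and −2.90 at 2 h, all called. At 24 h it changed by 0.25 and −0.002 under E2 and BPA, not called, and by 0.92 under HPTE, called. The brightest Hist1h2bc probe was called lower at 2 h under HPTE alone, and higher at 24 h under E2 and HPTE.

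Other genes of the histone pathway and of the cell cycle were read alongside. At 24 h under E2 all 40 genes of a list for S phase and DNA replication rose (median 1.41), among them Pcna, the sliding clamp of the replication fork (1.56), and Mcm3, a subunit of the replicative helicase (1.99). Under HPTE 25 of the 40 rose and 2 fell (median 0.46), and under BPA 2 rose and 5 fell (median 0.05), with Mcm3 at −0.26 and Pcna at −0.07, neither called. All 24 genes of a list for G2 and M phase rose under each compound, at medians of 2.87 for E2, 1.69 for BPA and 2.44 for HPTE; Ube2c, the ubiquitin conjugating enzyme of mitotic exit, rose by 3.59, 2.01 and 2.94. Under BPA at 24 h 6 of 10 H2A genes, 24 of 24 G2 and M phase genes and 2 of 40 S phase genes were thus called higher. Over all probes 5.09% were higher and 8.03% lower under BPA at 24 h, so the S phase share of rises was near that of all probes. For E2 these shares were 26.3% and 37.6%, and for HPTE 14.9% and 19.1%. With spike-in scaling the BPA counts were 0 H2A genes, 19 G2 and M phase genes and 0 S phase genes.

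**Figure D5:**
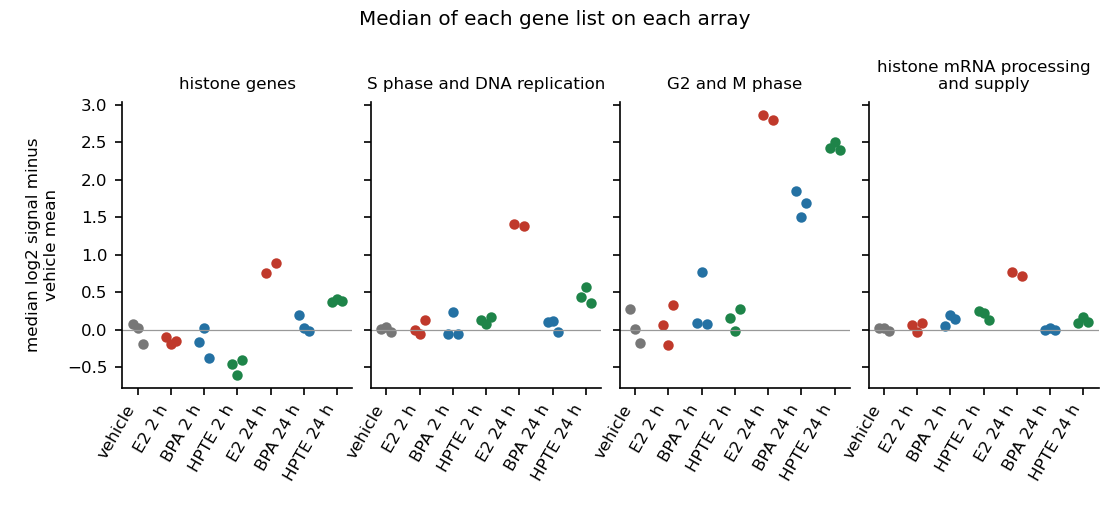
Median over the genes of a list of log2 signal minus the vehicle mean, on each array (1 point per array; grey vehicle, red E2, blue BPA, green HPTE), for the 33 histone genes, 40 S phase genes, 24 G2 and M phase genes and 23 genes of histone mRNA processing and histone supply. At 24 h the BPA points stand well above vehicle for G2 and M phase (1.5 to 1.85) and close to it for S phase (−0.03 to 0.11).

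Most genes that process histone messages or escort histone proteins were higher after E2 for 24 h. Of 23 such genes 18 rose and 1 fell under E2 at 24 h (median 0.76), 9 rose and 4 fell under HPTE (0.12) and 2 rose and 3 fell under BPA (0.00). The shares over all probes were 26.3% higher and 37.6% lower for E2, 14.9% and 19.1% for HPTE, and 5.09% and 8.03% for BPA. Slbp, the stem-loop binding protein, rose early under all 3 compounds, by 0.47, 0.69 and 0.77 at 2 h, and at 24 h was above vehicle under E2 alone (0.78, against 0.00 for BPA and 0.12 for HPTE). Asf1b, a chaperone of H3 and H4, rose by 2.92, 0.51 and 1.12 at 24 h, and Lsm11, a component of the U7 particle that directs cleavage behind the stem-loop, by 1.70, 0.53 and 1.04. Among 12 variant histones, made also outside S phase, 6 rose and 3 fell under E2 at 24 h, against 26.3% and 37.6% of all probes. Cenpa, the H3 variant of centromeres, rose by 2.43, 1.46 and 2.46, and H2afz by 1.01 under E2 and 0.41 under HPTE, with −0.17 under BPA, not called.

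The male germ line is the best known site of 3 members: Hist1h1t, Hist1h2aa and Hist1h2ba. Markers of male germ cells were present in this RNA and were highest in the vehicle group: all 11 tested of 12 markers, among them the protamines Prm1 and Prm2, were lower than vehicle in each of the 6 comparisons, with medians from −2.44 (BPA 2 h) to −6.19 (E2 24 h). Their summed scaled intensity was 58930 to 199000 in vehicle, 859 to 2738 and 576 to 1392 for E2 at 2 h and 24 h, 11640 to 24210 and 5848 to 10640 for BPA, and 3616 to 10870 and 2436 to 3320 for HPTE; Odf1 was not well above background in 4 of the 7 groups. Against these shifts Hist1h1t read 24.2, 17.1 and 15 in vehicle, from 4.07 to 21.2 elsewhere, and passed the test only as a fall under HPTE at 2 h (−1.32, SE 0.452, limma adjusted p = 2.45e-02), a call lost without vehicle replicate 1 or HPTE 2 h replicate 3. Hist1h2aa rose by 1.61, 0.64 and 0.97 at 24 h and Hist1h2ba by 0.83 under E2, opposite in sign to the germ cell markers. At 2 h Hist1h2ba was called lower under BPA and HPTE, the same sign as the markers, although its BPA arrays overlapped vehicle. The Hist1h2aa probe shares letters with that of Hist1h2af. Germ cell medians and Hist1h1c were both below vehicle in all 6 comparisons. The order of the compounds differed between them at 2 h and was the same at 24 h. At 2 h the germ cell medians were −5.88, −2.44 and −4.02 under E2, BPA and HPTE, beside −0.81, −1.15 and −1.49 for Hist1h1c. At 24 h they were −6.19, −3.57 and −5.02, beside −1.33, −0.50 and −0.62. From 2 h to 24 h the germ cell medians changed by −0.60, −1.04 and −0.88, with few markers called, beside −0.52, 0.65 and 0.87 for Hist1h1c. The part of germ cell RNA in these histone changes was not tested.

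Further markers set some libraries apart. Pancreatic markers summed to 189100 and 2124000 in E2 2 h replicates 3 and 2 and to 6108 and 15330 on the E2 24 h arrays, against 335.8 to 756.8 elsewhere. Lymphocyte markers summed to 13390 and 10850 in BPA 2 h replicates 1 and 2, against 2555 to 9358 elsewhere. Epithelial and muscle markers, which define the organ, were bright in all groups: their sums ranged from 78150 to 332100 and from 385700 to 789800, and both were highest on the E2 24 h arrays. Under BPA at 2 h 4 of 6 epithelial markers were lower than vehicle, against 30.2% of all probes. Stromal markers summed to 266800 to 286700 in vehicle, 221700 to 293800 for E2, 149800 to 299400 for BPA and 155400 to 183500 for HPTE at 2 h, and 633700 to 714000, 331200 to 514200 and 515700 to 566800 for E2, BPA and HPTE at 24 h. Of 7 stromal markers 1, 4 and 5 were lower at 2 h under E2, BPA and HPTE, and 4, 2 and 4 were higher at 24 h, with 1 lower under E2. The shares over all probes were 17%, 30.2% and 28.2% lower at 2 h, and 26.3%, 5.09% and 14.9% higher at 24 h, with 37.6% lower under E2. Whether these marker shifts contributed to the histone changes was not tested. Compared with the vehicle array on the same slide, 28 of 33 members were higher in E2 24 h replicate 3 (median 1.02), 26 in BPA 24 h replicate 1 (0.41) and 26 in HPTE 24 h replicate 3 (0.54); 18 were higher in BPA 24 h replicate 2 (0.04). On the 2 slides with 2 h arrays and a vehicle array, 25 to 32 of 33 members were lower, with medians from −0.35 to −0.74. Each of these same-slide counts sets 1 treated array against 1 vehicle array. The shares over all probes were not computed for them, so they do not set the members apart from other probes.

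Promoters offered a last shared feature. RefSeq start sites (GRCm38.p6) gave windows of 300 bases for 29 of the 34 members, from 250 bases before to 50 after the start; those of Hist1h2aa and Hist1h2ba shared 220 bases, since the genes are divergent neighbours. On either strand CCAAT occurred in 26 of the 29 (89.7%, against 37.4% of all 32851 windows), TATAAA in 19 (65.5% against 13.6%), the octamer ATTTGCAT in 10 (34.5% against 1.74%), AAACACA, the H1 box, in 9 (31.0% against 7.18%) and the E2F site TTTCGCGC in 2 (6.90% against 0.323%). TTTGGCGC and the palindromic estrogen response element were in 0 of the 29. Of the 14 genes with a window that rose under E2 at 24 h, 7 held the octamer and 11 TATAAA. Of the 4 that fell 1 and 1 held them, and of the 10 not called 1 and 6. The octamer was found only in H2A and H2B windows.

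The H1 pair that moved in opposite directions shows how alike these windows can be. The 250 bases before the start of Hist1h1b (chr13:21780626-21780875, minus strand) and of Hist1h1c (chr13:23738557-23738806, plus strand) are given with the motifs above in capitals:
Hist1h1b: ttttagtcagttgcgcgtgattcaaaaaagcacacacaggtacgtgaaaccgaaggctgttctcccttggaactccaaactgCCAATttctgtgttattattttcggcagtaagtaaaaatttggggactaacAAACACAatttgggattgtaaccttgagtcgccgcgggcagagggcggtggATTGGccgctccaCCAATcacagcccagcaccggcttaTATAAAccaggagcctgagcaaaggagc
Hist1h1c: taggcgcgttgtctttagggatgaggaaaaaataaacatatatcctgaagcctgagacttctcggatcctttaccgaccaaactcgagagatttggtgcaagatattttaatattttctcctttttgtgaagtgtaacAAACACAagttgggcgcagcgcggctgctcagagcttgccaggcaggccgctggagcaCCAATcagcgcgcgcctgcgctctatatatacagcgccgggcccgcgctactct
In both the H1 box lay upstream of a CCAAT, at 117 and 53 bases before the start in Hist1h1b and at 112 and 54 in Hist1h1c. TATAAA was present in the first and not in the second, which held tatatata between its CCAAT and the start. The H2A gene with the largest rise, Hist1h2ab (window chr13:23750838-23751087, plus strand), held the octamer, 2 CCAAT, the H1 box and TATAAA, the octamer starting 129 bases before the start site:
Hist1h2ab: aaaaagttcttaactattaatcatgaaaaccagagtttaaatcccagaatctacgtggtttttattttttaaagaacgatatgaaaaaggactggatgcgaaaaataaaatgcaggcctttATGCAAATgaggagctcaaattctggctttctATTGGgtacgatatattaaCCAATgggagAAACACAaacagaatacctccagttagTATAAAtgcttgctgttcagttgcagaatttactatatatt
These matches describe letters and say nothing of whether a factor was bound.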

How the data were processed

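RNA (500 ng per sample) was labelled and hybridised to one-colour Agilent arrays, and the slides were read with Agilent Feature Extraction 9.5 (submitters' processing notes). The deposited scanner files hold, per the file headers, each spot's background-subtracted and scanner-processed intensity, which is the unit used; the deposited matrix held the same intensities (all 20 columns within a relative tolerance of 1e-06) and was not used further. No comparison columns of the authors were used. Spots of a probe were averaged on the log2 scale, each array was centred on its 75th percentile (1320 to 2046, median 1679), and a probe was tested if all arrays of 1 or more groups had it well above background (true of 72.7 to 81.4% of probes per array). The number of arrays limits precision; arrays give no read depth.

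A limma fit (limma 3.58.1, R 4.3.3, with eBayes) of 7 groups over 32460 probes gave 13 contrasts, with Benjamini-Hochberg adjusted p-values per contrast. The fit was tested on simulated data with known changes. Labels give replicate numbers and name no mouse, and the study's methods describe pooled tissue, so p-values measure the spread between these samples, which may be partly technical. Members were named by array symbol and matched to RefSeq (31 by accession, 3 by synonym). The text singles out members with the 3 largest called rises and falls per comparison with vehicle (arrays not overlapping), the brightest and the most variable member of each histone type, and 3 germ line genes; Hist1h1b, Hist1h1d, Hist1h1e, Hist1h2ae, Hist3h2a and other members given values were chosen after their values were seen. From other lists the 4 most variable genes and Slbp could be named. The members and lists were chosen with earlier results of these data known. Alternatives comprised background correction, scaling, filters, probe averaging, slide, scan day, replicate number and each array left out.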

Additional observations from a re-analysis of the deposited data

Results flagged for a closer look

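The effect of a compound on a named histone gene differed between 2 h and 24 h, by limma's test of the difference itself, in 35 cases; these are log2 values and both effects share the vehicle arrays. Under E2 the differences, 24 h minus 2 h, were −0.52 for Hist1h1c, 1.58 for Hist1h2aa, 2.54 for Hist1h2ab, 2.11 for Hist1h2ai, 2.17 for Hist1h2ak, 0.98 for Hist1h2ba, 0.90 for Hist1h2bc, 4.67 as fitted for Hist1h3a, 0.35 for Hist1h4f, 1.99 for Hist1h4i, 0.38 for Hist2h2aa1 and −0.72 for Hist3h2ba. No E2 2 h array was well above background for Hist1h3a, so that its fitted value is no measured size and only an at least 13.6-fold difference holds. Under BPA the differences, 24 h minus 2 h, were 0.65 for Hist1h1c, 0.58 for Hist1h2aa, 0.87 for Hist1h2ab, 0.73 for Hist1h2ai, 0.84 for Hist1h2ak, 0.58 for Hist1h2ba, 0.47 for Hist1h2bc, 0.74 for Hist2h2aa2, 1.03 for Hist2h2be and 0.86 for Hist3h2ba. Under HPTE the differences, 24 h minus 2 h, were 0.87 for Hist1h1c, 1.03 for Hist1h2aa, 1.73 for Hist1h2ab, 1.18 for Hist1h2ai, 1.23 for Hist1h2ak, 1.13 for Hist1h2ba, 1.09 for Hist1h2bc, 2.50 for Hist1h3a (well above background on 1 of the 3 HPTE 2 h arrays), 0.45 for Hist1h4f, 1.64 for Hist1h4i, 1.16 for Hist2h2aa2, 0.84 for Hist2h2be and 0.77 for Hist3h2ba. Among these, 2 cases crossed from a called fall at 2 h to a called rise at 24 h, Hist1h2bc and Hist1h4i under HPTE. The 24 h call of Hist1h2bc was lost in 9 of the 20 fits that left out 1 array, and both 24 h calls with spike-in scaling. Groups of 3 or fewer arrays were not tested for single outlying arrays.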

How the results depend on the processing

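Precision is limited by 2 or 3 arrays per group, and probes near background give bounds only. Of 110 called values of named members, 3530 recomputed values kept direction and call in 3309 cases, lost the call in 219 and changed sign in 2. The cause of each change below was not tested.

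With spike-in scaling the histone genes called numbered 2, 5 and 4 for E2, BPA and HPTE at 2 h against vehicle, 0 for BPA and 4 for HPTE at 24 h, 1 and 6 for BPA and HPTE at 24 h against 2 h, and 9 for HPTE against E2. A change of at least 2-fold left 0, 4 and 5 at 2 h, 2 and 7 for BPA and HPTE at 24 h, 14, 1 and 15 for E2, BPA and HPTE at 24 h against 2 h, and 9 and 3 for BPA and HPTE against E2. Without scaling BPA gave 6 at 24 h and 7 for 24 h against 2 h. Slide as a fixed block gave 7, 6 and 11 for BPA at 2 h, at 24 h and for 24 h against 2 h. A fit on the compared groups only gave 6 for BPA at 2 h. HPTE against BPA at 24 h gave 2 calls with normexp and quantile normalization, 1 with quantile normalization and 1 with only probes above background on all arrays. Leaving out both E2 2 h arrays with pancreatic transcripts, chosen after seeing the data, gave 3 for E2 at 2 h; the lone sample was assumed to vary like the other groups.

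Leaving out 1 array at a time gave 7 to 12 calls for BPA at 2 h, 6 to 11 for BPA at 24 h, 0 to 2 and 0 to 1 for HPTE against BPA at 2 h and 24 h, and 10 to 21 for HPTE against E2. Signs turned for Hist1h4f under HPTE, 24 h against 2 h, with spike-in scaling (−0.0974), for Hist2h3c1 under E2 at 24 h with quantile normalization (−0.3164) and with normexp before it (−0.2811), and for Hist2h3c1 in BPA against E2 with quantile normalization (0.0238).

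With a replicate block the calls were 7, 12 and 19 at 2 h and 22, 10 and 16 at 24 h for E2, BPA and HPTE. The samples share only a number: deviations of same-numbered arrays had a median correlation of −0.049.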
